A study of Mus musculus with 81 samples.

Results

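Sterol and fatty acid synthesis was followed through 33 genes, chosen by symbol from the 25124 genes of each count table: 8 enzymes from acetyl-CoA to the isoprenoid diphosphates, 12 enzymes from squalene to cholesterol, 5 genes of the SREBP transcription factors and their regulators, 1 sterol carrier and 7 enzymes of fatty acid synthesis. All 33 were present in the 6 tables. Polyadenylated RNA was sequenced from microglia, brain macrophages, which had been sorted by flow cytometry out of brains of adult C57BL/6 mice, with 2 to 6 mice pooled per sort. The 81 libraries formed 28 groups. Mice ate regular food (baseline) or food with 0.2% cuprizone, which chelates copper, kills the myelin-forming oligodendrocytes and so demyelinates the brain, over 4, 5 or 6 weeks. Baseline cells were sorted as CD44 low, CD45 low and CD11b low. Cuprizone cells were gated on CD229 (the product of Ly9) and CD11c (the product of Itgax), as CD229- CD11c-, CD229+ CD11c- and CD229+ CD11c+. At 5 weeks they were also gated on the lectin receptor Clec7a, which gave Clec7a- (negative for all 3), Clec7a+ (positive for Clec7a alone), Clec7a+ CD229+ and triple-positive cells. The genotypes were wild type (WT) and Trem2KO at baseline and 4 weeks, Cx3cr1CreERT2/WT (Cre) at baseline, 5 and 6 weeks, Cx3cr1CreERT2/WT::Mef2afl/fl (Mef2aKO) at baseline and 5 weeks, with further baseline Mef2aKO cells sorted as CD229- or CD229+, and Cx3cr1CreERT2/WT::Egr2fl/fl (Egr2KO) at baseline, 5 and 6 weeks. The Cx3cr1 promoter drives the recombinase in microglia and other cells that express the fractalkine receptor, and the Cre, Mef2aKO and Egr2KO mice all carry it. Most groups had 3 libraries. Each gate of cuprizone-fed Trem2KO mice had 4, and there were 2 in Mef2aKO Clec7a-, in Mef2aKO baseline CD229+, in Egr2KO baseline and in the ungated populations of Cre and Egr2KO mice at 5 weeks.

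Cells build cholesterol from acetyl-CoA through mevalonate, farnesyl diphosphate, squalene and lanosterol, and fatty acids from acetyl-CoA through malonyl-CoA. Both branches are switched on by the SREBP proteins, which are made as precursors in the endoplasmic reticulum. SCAP escorts the precursors to the Golgi for cleavage when sterol is scarce, and INSIG proteins hold SCAP back when sterol is plentiful. SREBP2, from Srebf2, acts mostly on the sterol branch, and SREBP1, from Srebf1, mostly on fatty acid synthesis. Srebf1 transcription is also raised by the liver X receptors, which sense oxidized sterols and sterol precursors. Microglia that clear myelin take up much cholesterol and lipid.

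SREBPs bind sterol response elements beside CCAAT boxes, bound by NF-Y, and GC boxes, bound by Sp proteins. The letters TCACNCCAC, CCAAT and GGGCGG were searched on both strands from 250 bases before to 50 bases after each RefSeq gene start (GRCm38.p6). Of the 33 genes 27 had a promoter in that set. The other 6 were Sqle, Fdps, Fdft1, Stard4, Scd1 and Scd2. The sterol element was in 1 of the 27 genes (3.70%), against 1.44% of all 27025 genes of the set. The CCAAT box was in 23 (85.2%), against 41.1% of all genes, and the GC box in 22 (81.5%), against 38.2%. The set was not limited to genes expressed in these cells, and a contrast with expressed genes alone was not tested. These matches describe letters only. Acaca, which rose in 8 steps below, held none of these motifs in the 160 bases before the start of its counted transcript. Whether transcription begins at that start in these cells was not tested, so its promoter may lie elsewhere. Insig1 held 1 GC box in the 160 bases before its own start and neither of the others. The 160 bases before 4 starts are printed 5′ to 3′ on the gene's strand, with the motifs in capitals on either strand: Hmgcs1, which had the sterol element, Fasn and Srebf1, which rose in most steps below, and Lbr, which fell.
Hmgcs1, chr13:119690191-119690350, plus strand, with the sterol element 137 bases before the start.
Hmgcs1: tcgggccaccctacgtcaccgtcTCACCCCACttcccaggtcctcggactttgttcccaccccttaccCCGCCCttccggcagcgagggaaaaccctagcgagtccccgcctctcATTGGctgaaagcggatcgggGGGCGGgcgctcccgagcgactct
Fasn, chr11:120824548-120824707, minus strand, with 3 CCAAT boxes, a pair of which overlap on opposite strands.
Fasn: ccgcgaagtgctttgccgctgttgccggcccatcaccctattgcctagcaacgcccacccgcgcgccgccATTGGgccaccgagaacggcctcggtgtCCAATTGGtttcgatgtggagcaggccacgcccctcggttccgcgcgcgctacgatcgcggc
Srebf1, chr11:60220628-60220787, minus strand, with 2 GC boxes.
Srebf1: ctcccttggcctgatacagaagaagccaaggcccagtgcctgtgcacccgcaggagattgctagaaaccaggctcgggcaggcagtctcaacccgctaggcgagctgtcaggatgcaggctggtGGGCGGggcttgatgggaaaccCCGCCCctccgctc
Lbr, chr1:181842402-181842561, minus strand, with 2 CCAAT boxes and 1 GC box.
Lbr: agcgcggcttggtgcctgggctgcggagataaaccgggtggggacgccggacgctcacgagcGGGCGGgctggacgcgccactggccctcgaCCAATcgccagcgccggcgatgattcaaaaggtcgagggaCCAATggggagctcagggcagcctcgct

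Library depth was 4387075 to 13972985 counted reads, and values below are in CPM, read counts scaled to the library's size. Log2 fold changes are given ± SE, with p-values from edgeR's quasi-likelihood test adjusted over all genes of a fit; a gene is said to rise or fall where its adjusted p was under 0.05. Trem2 was at 87.5 to 122 CPM in Trem2KO and 347 to 411 CPM in WT baseline libraries. Mef2a kept 566 to 926 CPM in Mef2aKO against 485 to 985 CPM in Cre cuprizone libraries, and Egr2 was at 2.75 to 4.31 against 2.78 to 4.54 CPM at baseline, so neither gene checks its label there. In the ungated 5-week cells Egr2 was lower in Egr2KO (log2 -1.61 ± 0.14, adjusted p = 3.94e-05). In the 6-week gates it was not called lower: the log2 difference was -0.88 ± 0.25, adjusted p = 0.286 in CD229-, -0.62 ± 0.20, adjusted p = 0.103 in CD229+, and -0.43 ± 0.18, adjusted p = 0.487 in CD229+ CD11c+ cells, and Egr2KO cuprizone libraries held 9.43 to 90.0 CPM. The counts therefore do not check the label of those libraries. The 8 microglia markers summed to 5984 to 14099 CPM in every library, and 5 T and NK cell markers to 0 to 1.03 CPM. The 8 oligodendrocyte markers, of interest because myelinating cells make much sterol, summed to 161 to 225 CPM over all libraries. Most of that sum was Mbp (49.7 to 96.8 CPM), Cnp (59.5 to 91.2 CPM) and Mag (20.5 to 61.3 CPM), while Mog was at 0 to 0.588 CPM; their part in the results was not tested. The 10 cell cycle genes moved with the gates, from 157 to 174 CPM in WT baseline to 436 to 620.1 CPM in CD229-, 817 to 1002 CPM in CD229+ and 411 to 633 CPM in CD229+ CD11c+ libraries, and their part in the results below was not tested. The 6 border macrophage markers ranged from 8.72 to 353 CPM, with their part not tested either. Fewer cells of one kind and less RNA per cell cannot be told apart in sorted bulk RNA.

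Per kilobase of the counted transcript, WT baseline cells held most of Acly, ATP citrate lyase, at 61.7 ± 3.58 CPM per kb (SD, n = 3). Next came the desaturase Scd2 at 37.1 ± 1.92, Scap at 32.3 ± 1.56, the sterol isomerase Ebp at 30.3 ± 1.55, Lbr at 25.4 ± 1.91 and Srebf1 at 21.6 ± 0.871 CPM per kb. Scd2 lay above Scap beyond their spread, while Scap and Ebp lay within about 1 SD of each other. Acaca, acetyl-CoA carboxylase and the committed step of fatty acid synthesis, was near the bottom at 1.51 ± 0.362 CPM per kb, in place 27 of 33. Elovl6, Idi1 and Scd1 came last, at 0.379 ± 0.07, 0.356 ± 0.179 and 0.278 ± 0.272 CPM per kb, and did not separate from one another beyond their spread.

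The 10 diet and gate steps of WT and Cre cells, drawn as a map of log2 fold changes, moved a few members again and again. Fasn passed the test in 9 of the 10, Acaca, Srebf1 and Scd2 in 8, and Dhcr7, the last reductase of one cholesterol branch, and Fdft1, squalene synthase, in 6. Acaca rose in all 8 of its steps and Dhcr7 in all 6. Fasn rose in 7 and fell in 2, Srebf1 and Scd2 rose in 6 and fell in 2, and Fdft1 rose in 4 and fell in 2. Lbr and Pmvk passed in 4, Lbr always falling and Pmvk always rising. Mvk, Idi1, Nsdhl, Hsd17b7, Scap, Insig2, Acss2 and Elovl6 passed in none of the 10.

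**Figure D1:**
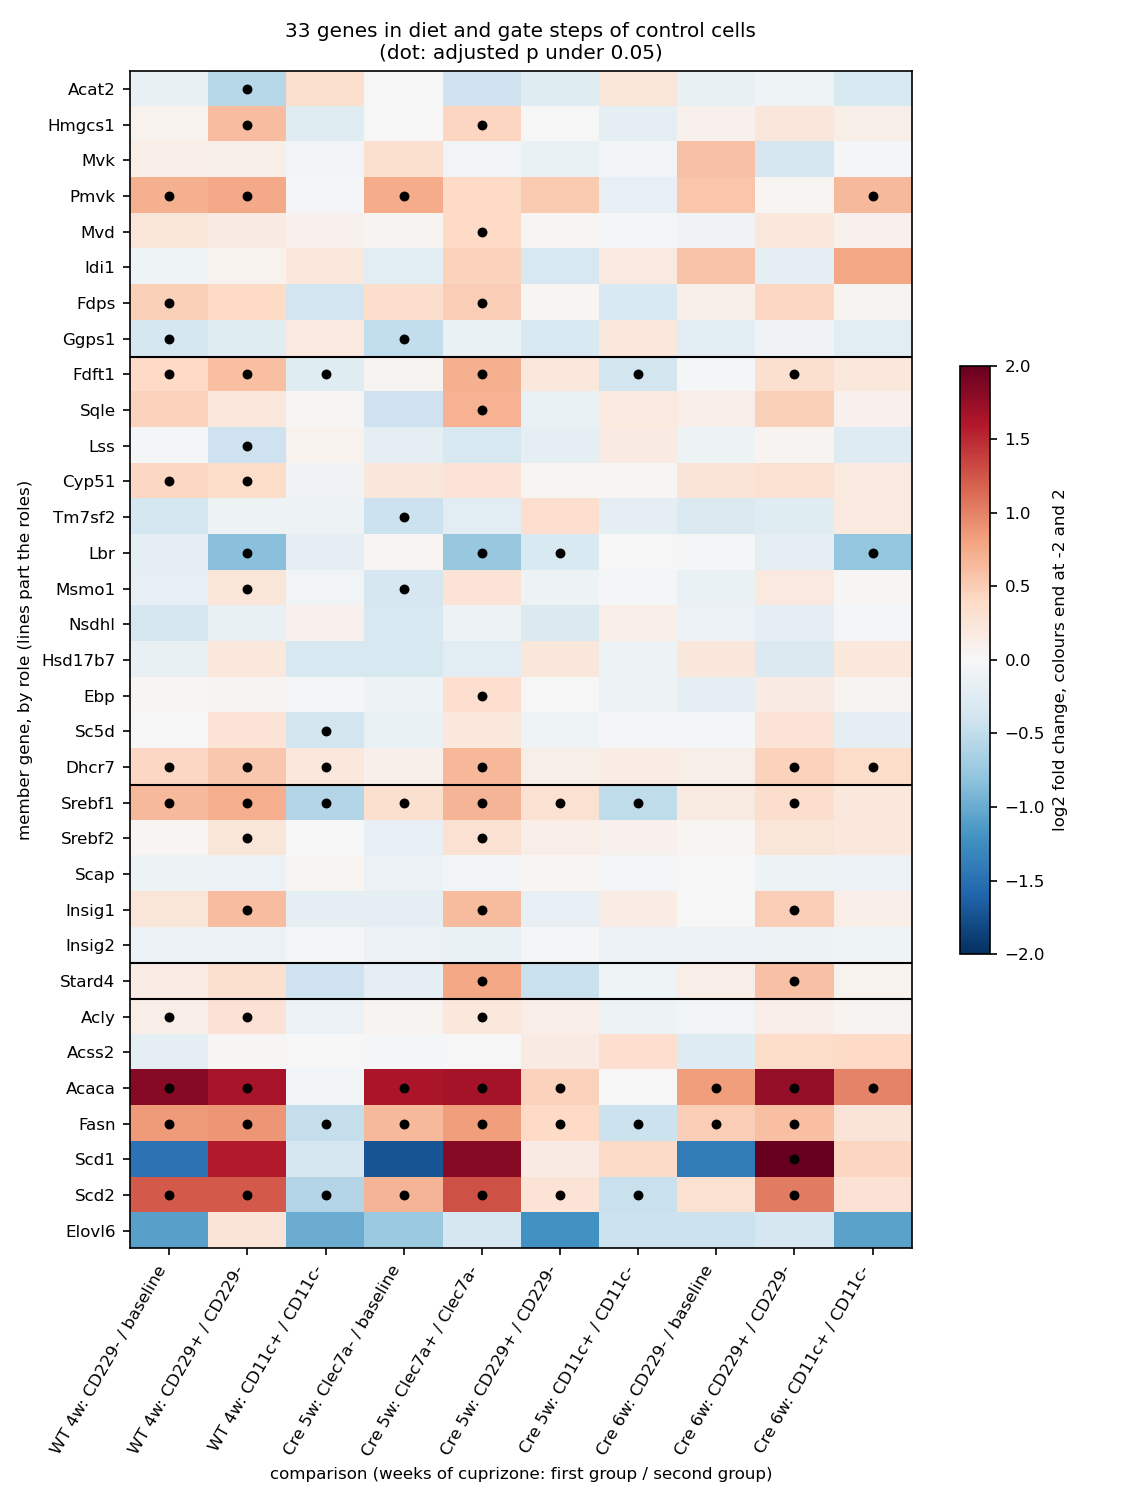
Log2 fold change of each member (rows, by role) in the 10 diet and gate steps of WT and Cre cells (columns), red for higher in the first group, with a dot where the adjusted p was under 0.05. Acaca, Fasn, Scd2 and Srebf1 carry dots in 8 or 9 columns, Lbr is blue in its 4 dotted ones, and the strong colours of Scd1 and Elovl6 rest on levels of at most a few CPM.

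The first step set WT CD229- cells at 4 weeks against WT baseline cells. It joins the diet with the gate, since baseline cells were not gated on CD229. Acaca stood at 11.7, 11.7 and 17.3 CPM in the 3 baseline libraries and at 38.5, 40.6 and 60.5 CPM in the 3 CD229- libraries. No library of one group reached the other, and the log2 fold change was 1.82 ± 0.17, adjusted p = 1.79e-09. Scd2, which introduces a double bond into newly made fatty acids, went from 207, 209 and 190.0 CPM to 411, 420.1 and 550.0 CPM (1.23 ± 0.10, adjusted p = 1.88e-10), again without overlap. Fatty acid synthase, Fasn, went from 73.9, 68.0 and 76.0 to 111, 114 and 155 CPM (0.84 ± 0.10, adjusted p = 1.45e-07). In all 3 enzymes CD229- replicate 3 was the highest of its group. Of the 33 members 10 rose and 1 fell (33.3%), and over all genes tested 30.4% were called, 18.8% higher and 11.7% lower. With DESeq2's size factors in edgeR the split was 8 and 3. Their median log2 change was 0.04, against 0.001 over all genes.

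**Figure D2:**
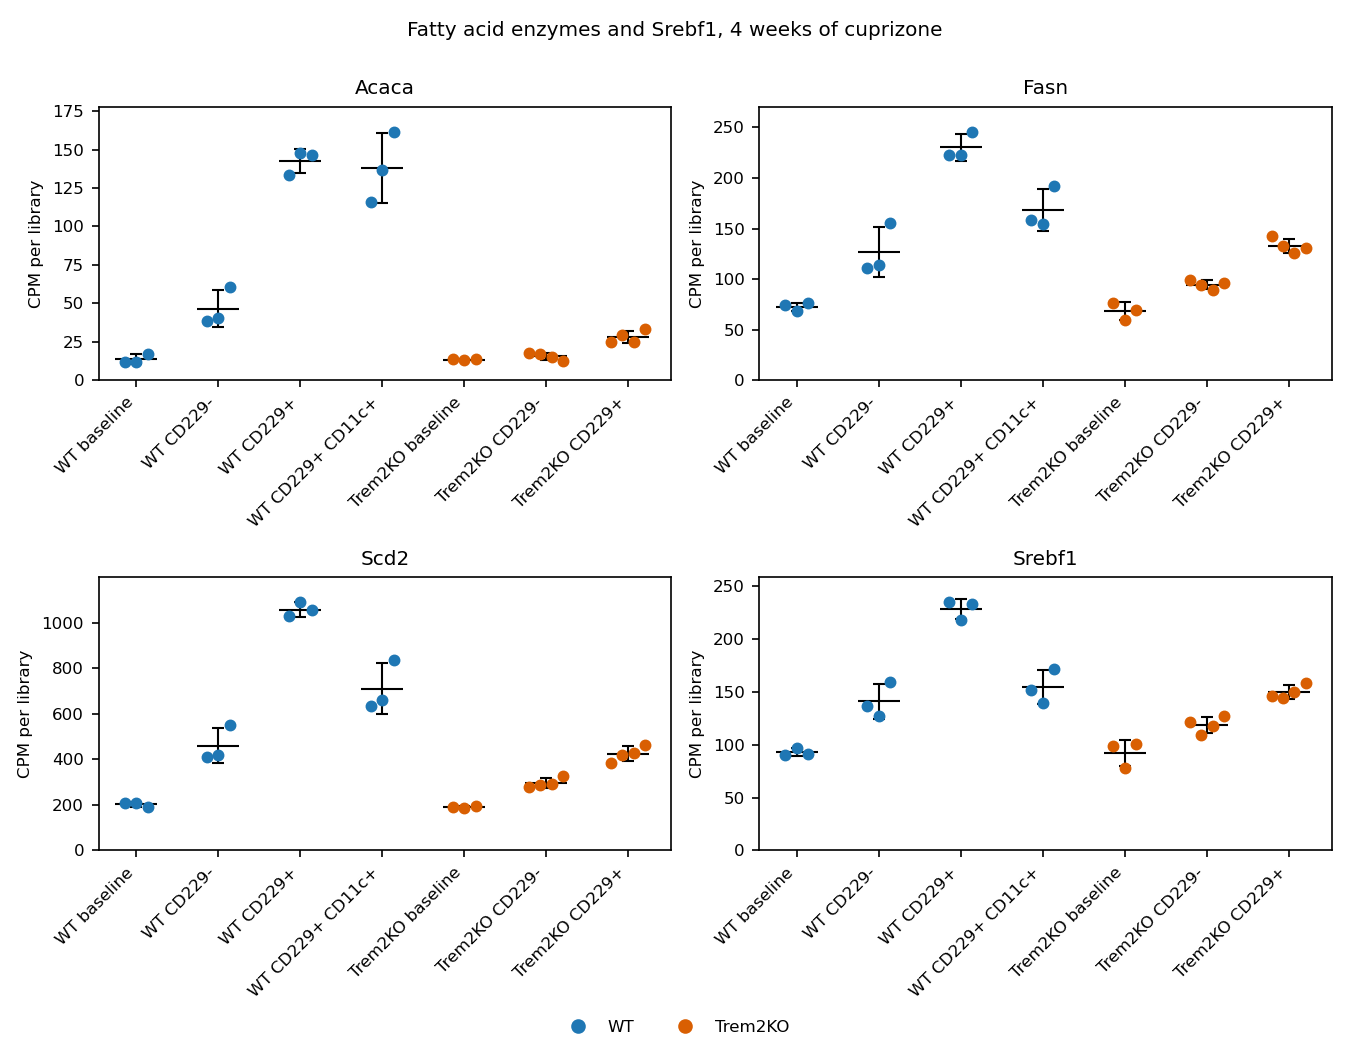
CPM in each library (points) with the group mean and SD (bars) for Acaca, Fasn, Scd2 and Srebf1 in WT and Trem2KO cells at baseline and after 4 weeks of cuprizone. Acaca is at 133 to 148 CPM in WT CD229+ libraries and at 24.6 to 33.02 CPM in Trem2KO CD229+ libraries, and Fasn, Scd2 and Srebf1 are lower in the WT CD11c+ than in the WT CD229+ libraries.

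Between WT CD229- and CD229+ cells of the same diet 4 of the 7 fatty acid enzymes rose. Acaca reached 133, 148 and 146 CPM (1.64 ± 0.14, adjusted p = 2.82e-10), Scd2 1028, 1090.1 and 1053 CPM (1.23 ± 0.10, adjusted p = 7.83e-11) and Fasn 223, 223 and 246 CPM (0.89 ± 0.09, adjusted p = 1.36e-08). Every CD229+ library lay above every CD229- library for these genes. Acly, already abundant, rose from 289.8 ± 6.67 to 347 ± 5.06 CPM (0.28 ± 0.05, adjusted p = 3.02e-05). Acss2, which makes acetyl-CoA from acetate, was at 4.66 ± 0.712 and 4.66 ± 0.687 CPM (0.03 ± 0.22, adjusted p = 0.923). Scd1 gave 5, 1 and 6 reads in CD229- and 9, 6 and 19 reads in CD229+ libraries and did not pass (1.58 ± 0.69, adjusted p = 0.0606), and Elovl6 was at 1.02 ± 0.575 and 1.22 ± 0.423 CPM. Scd1 and Scd2 are close paralogs, so a few reads of one may have been counted for the other. In this step 13 members rose and 3 fell (48.5%), against 48.8%, 24.6% higher and 24.2% lower over all genes. The share is close to that background. The members' median was 0.24, against -0.006 over all genes, and 0.89 over the 7 fatty acid enzymes.

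Cre cells at 5 weeks showed the rise at the Clec7a gate. Acaca went from 14.1, 10.1 and 12.9 CPM at baseline to 33.2, 38.7 and 44.6 CPM in Clec7a- cells (1.63 ± 0.12, adjusted p = 4.85e-13) and to 114, 122 and 120.3 CPM in Clec7a+ cells (1.67 ± 0.10, adjusted p = 2.46e-15). It rose again to 158, 166 and 166 CPM with CD229 (0.45 ± 0.09, adjusted p = 0.00109). Each group lay clear of the one before it. Scd2 went from 217 ± 16.6 to 354 ± 20.4, 819 ± 56.9 and 993 ± 43.2 CPM, with log2 steps of 0.69 ± 0.08, adjusted p = 4.43e-08, 1.27 ± 0.08, adjusted p = 3.09e-14, and 0.27 ± 0.08, adjusted p = 0.0344. The last of these was not called without Clec7a+ CD229+ replicate 1 or 2 (adjusted p = 0.095 and 0.121) or Clec7a+ replicate 1 or 3 (0.172 and 0.0567). Fasn rose in all 3 steps, by 0.66, 0.84 and 0.40 on the log2 scale, with edgeR adjusted p of 1.2e-09, 1.37e-12 and 6.63e-05. Over all members 5 rose and 3 fell from baseline to Clec7a- cells (24.2%, all genes 28.8%, 15.5% higher and 13.3% lower). At the Clec7a gate 15 rose and 1 fell (48.5%, all genes 37.9%, 20.9% higher and 17.0% lower), with a median of 0.30 against 0.002 over all genes. At the CD229 gate 4 rose and 1 fell (15.2%, all genes 5.53%, 2.1% higher and 3.43% lower); that count of 5 was 3 without Clec7a+ CD229+ replicate 1 or without Clec7a+ replicate 1 or 3.

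At 6 weeks the rise of the Cre cells lay mostly between CD229- and CD229+ cells. Acaca was at 16.2, 23.7 and 26.6 CPM in CD229- libraries and at 51.0, 100.3 and 79.0 CPM in CD229+ libraries (1.76 ± 0.17, adjusted p = 3.7e-08). The CD229+ libraries spread widely, with replicate 1 the lowest, and did not overlap CD229-. Scd2 went from 254, 279.5 and 286 to 480.2, 688 and 526 CPM (1.04 ± 0.12, adjusted p = 4.18e-07) and Fasn from 86.8, 98.2 and 106 to 117, 177 and 153 CPM (0.61 ± 0.11, adjusted p = 0.000206). Scd1, at 1, 5 and 6 reads and 8, 28 and 32 reads, rose here (2.44 ± 0.73, adjusted p = 0.0209), and the call ended without any one of CD229- replicates 1, 2 and 3 (adjusted p = 0.0697, 0.0513 and 0.056) or CD229+ replicates 2 and 3 (0.0905 and 0.0594). From baseline to CD229-, Fasn rose (0.50 ± 0.11, adjusted p = 0.00473) and so did Acaca (0.83 ± 0.20, adjusted p = 0.00756), the latter not without CD229- replicate 3 (0.084) or baseline replicate 2 (0.0731). These were the 2 called members of that step (6.06%, all genes 5.85%, 5.03% higher and 0.827% lower); without either library just named the count was 1. At the CD229 gate 9 of 33 rose and 0 fell (27.3%, all genes 17.2%, 10.7% higher and 6.54% lower), and the count was 5 without CD229- replicate 1 or CD229+ replicate 2. In each 6-week gate 2 of 3 libraries carry a PE150 tag in their titles, and no Cre baseline library carries it. Within the tagged libraries 7 members were called at this gate, and within the untagged ones, 1 per gate, 2, namely Acaca and Scd2.

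Among the SREBP factors and regulators, Srebf1 passed the test in the most control steps. It stood at 90.7, 97.3 and 91.0 CPM in WT baseline, 137, 127 and 159 CPM in CD229- and 235, 218 and 233 CPM in CD229+ libraries, without overlap between neighbours. The steps were 0.64 ± 0.09, adjusted p = 1.91e-06 and 0.72 ± 0.09, adjusted p = 8.69e-08. In Cre cells at 5 weeks it rose at each of 3 steps, from 98.1 ± 1.93 to 124 ± 9.40, 190.0 ± 9.90 and 234 ± 8.36 CPM, by 0.31, 0.67 and 0.30 (edgeR adjusted p = 7.33e-05, 1.73e-11 and 0.000589). At the 6-week CD229 gate it rose from 113 ± 18.4 to 145 ± 16.5 CPM (0.35 ± 0.10, adjusted p = 0.015), and not without CD229- replicate 1 (0.0892) or CD229+ replicate 2 (0.0922), nor in the untagged libraries (0.11). The counts do not separate the isoforms of Srebf1. Srebf2 passed in 2 steps: it was at 71.9, 75.1 and 82.4 CPM in WT CD229- and 86.5, 85.7 and 94.3 CPM in CD229+ libraries (0.24 ± 0.07, adjusted p = 0.00426), and at 69.0 ± 3.09 and 81.6 ± 8.87 CPM on the sides of the 5-week Clec7a gate (0.30 ± 0.09, adjusted p = 0.00651). The latter call ended without Clec7a+ replicate 1 (0.0601). At the 6-week CD229 gate Srebf2 did not pass (0.24 ± 0.11, adjusted p = 0.133). It did pass with the replicate number as a block (0.24, adjusted p = 0.0281), where same-numbered libraries deviated together. Insig1, an SREBP target that closes the feedback, rose from 18.6, 18.5 and 19.2 to 26.6, 26.1 and 32.1 CPM at the WT CD229 gate (0.62 ± 0.12, adjusted p = 0.00011). It rose by like amounts at the 5-week Clec7a gate (0.63 ± 0.13, adjusted p = 0.000155) and the 6-week CD229 gate (0.49 ± 0.12, adjusted p = 0.00582). Scap and Insig2 passed in none of these steps, and Scap kept to 107 to 142 CPM over the 12 WT libraries.

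The mevalonate enzymes split. Hmgcs1, the cytosolic HMG-CoA synthase, was at 37.3, 46.8 and 39.0 CPM in WT baseline and 36.1, 41.5 and 47.4 CPM in CD229- libraries, which overlapped (0.06 ± 0.10, adjusted p = 0.682), and reached 62.4, 58.5 and 67.3 CPM in CD229+ libraries (0.62 ± 0.10, adjusted p = 1.43e-05). At the 5-week Clec7a gate it went from 41.0, 40.5 and 41.5 to 49.8, 57.3 and 51.7 CPM (0.42 ± 0.08, adjusted p = 8.17e-05). These were the 2 of 10 control steps in which Hmgcs1, which holds the sterol element printed above, passed the test. It did not pass at the 5-week CD229 gate (0.01 ± 0.08, adjusted p = 0.946) or the 6-week CD229 gate (0.22 ± 0.10, adjusted p = 0.16). Phosphomevalonate kinase, Pmvk, rose at both WT steps, from 6.39, 3.08 and 6.85 to 9.0, 8.22 and 8.66 and 13.5, 13.9 and 15.4 CPM (0.72 ± 0.22, adjusted p = 0.0161, and 0.76 ± 0.21, adjusted p = 0.00375). The first of these was not called without WT baseline replicate 2 (0.154). Farnesyl diphosphate synthase, Fdps, rose at the 5-week Clec7a gate from 9.32, 10.2 and 12.8 to 17.1, 12.5 and 14.3 CPM, with overlap (0.50 ± 0.18, adjusted p = 0.0241), and not without Clec7a- replicate 1 or 2 (0.138 and 0.0653) or Clec7a+ replicate 1 (0.156). Its exons share 26.7% of their bases with Gm43738 on the same strand in GENCODE M21, so its counts are uncertain. Ggps1, which makes geranylgeranyl diphosphate for protein prenylation, went the other way in steps from baseline. It fell from 73.3 ± 6.04 CPM at baseline to 55.6 ± 4.34 CPM in CD229- cells of WT (-0.36 ± 0.10, adjusted p = 0.00705). In Cre cells it fell from 79.0 ± 7.03 CPM at baseline to 56.9 ± 6.98 CPM in 5-week Clec7a- cells (-0.50 ± 0.10, adjusted p = 0.000284). Acat2, the first thiolase, fell at the WT CD229 gate from 8.95 ± 0.900 to 5.89 ± 0.498 CPM (-0.57 ± 0.19, adjusted p = 0.0131), but not without CD229- replicate 3 (0.0644) or CD229+ replicate 1 (0.0534). Mvk stayed at 6.07 to 10.3 CPM in WT, and Idi1 at 0.118 to 2.08 CPM.

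Among the enzymes after farnesyl diphosphate, Dhcr7 rose with most steps. It was at 38.0, 38.2 and 38.6 CPM in WT baseline, 44.4, 48.0 and 55.9 CPM in CD229- and 67.5, 70.2 and 73.2 CPM in CD229+ libraries (0.41 ± 0.08, adjusted p = 0.000409, and 0.53 ± 0.08, adjusted p = 5.29e-06). In Cre cells it rose at the 5-week Clec7a gate from 45.2 ± 2.65 to 68.9 ± 2.33 CPM (0.67 ± 0.08, adjusted p = 8.16e-08) and at the 6-week CD229 gate from 45.6 ± 4.48 to 63.6 ± 9.53 CPM (0.47 ± 0.10, adjusted p = 0.0021). Cyp51, lanosterol demethylase, rose by 0.41 and 0.37 at the WT steps (edgeR adjusted p = 0.0112 and 0.0118), the first not without CD229- replicate 3 (0.0666) or baseline replicate 3 (0.0696) and the second not without CD229- replicate 1 (0.0596) or CD229+ replicate 2 (0.057). Lanosterol synthase, Lss, fell at the WT CD229 gate from 16.9 ± 0.739 to 12.4 ± 1.68 CPM (-0.42 ± 0.12, adjusted p = 0.00596), but not without CD229+ replicate 1 (0.0509). Nsdhl and Hsd17b7, of the complex that removes methyl groups from the sterol ring, passed in none of the WT steps.

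Lbr fell in 4 of the 10 control steps and rose in none. It encodes the lamin B receptor, an inner nuclear membrane protein that also carries a sterol reductase activity shared with Tm7sf2. Its level was 73.8, 82.2 and 75.6 CPM in WT CD229- libraries and 44.9, 38.2 and 43.9 CPM in CD229+ libraries (-0.84 ± 0.08, adjusted p = 1.04e-09). At 5 weeks it went from 91.8, 83.1 and 92.5 CPM in Clec7a- to 53.3, 48.2 and 50.3 CPM in Clec7a+ libraries (-0.76 ± 0.08, adjusted p = 5.21e-09). At 6 weeks the fall came one gate later: CD229- and CD229+ libraries held 85.1 ± 4.51 and 75.9 ± 0.957 CPM (-0.18 ± 0.09, adjusted p = 0.175), and CD229+ CD11c+ libraries 34.7, 44.2 and 53.4 CPM (-0.78 ± 0.09, adjusted p = 5.47e-07). In each of these 3 falls the groups did not overlap. Tm7sf2 did not fall in these 3 steps (-0.10 ± 0.18, adjusted p = 0.681 at the WT CD229 gate). Lbr exons share 9.24% of their bases with Dnah14 on the other strand, and the sources used here do not say whether strand was used in counting.

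Fdft1, the first enzyme committed to sterols, rose from 54.9, 59.6 and 60.6 CPM in WT baseline to 70.7, 68.9 and 83.3 CPM in CD229- (0.39 ± 0.08, adjusted p = 0.000616) and 106, 115 and 109.9 CPM in CD229+ libraries (0.60 ± 0.08, adjusted p = 8.91e-07). At the 5-week Clec7a gate it went from 63.7 ± 7.69 to 100.3 ± 4.68 CPM (0.71 ± 0.08, adjusted p = 9.28e-09). These values are uncertain, because 774 bases of its exons (18.3%) lie over exons of Ctsb, the cathepsin B gene, on the other strand. Ctsb was at 997 to 1075 CPM in WT baseline, 1631 to 1909 CPM in CD229- and 2756 to 3043 CPM in CD229+ libraries, well above Fdft1 and in the same order. How many Fdft1 counts are Ctsb reads was not tested.

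Stard4, a cytosolic carrier that moves sterol between membranes, was at 5.67, 4.67 and 5.45 CPM in Clec7a- and 10.0, 8.22 and 7.38 CPM in Clec7a+ Cre libraries (0.77 ± 0.19, adjusted p = 0.0017). At the WT CD229 gate it was at 8.04 ± 0.783 and 9.79 ± 2.13 CPM and did not pass (0.32 ± 0.19, adjusted p = 0.184). At the 6-week CD229 gate it rose from 6.52 ± 1.97 to 10.0 ± 1.64 CPM (0.59 ± 0.20, adjusted p = 0.046), though not without CD229- replicate 1 or 3 (0.196 and 0.0766) or CD229+ replicate 2 (0.237).

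The step to CD11c went the other way for part of the genes at 4 and 5 weeks. In WT CD229+ CD11c+ libraries Srebf1 was at 152, 139.7 and 172 CPM, below every CD229+ library (-0.58 ± 0.09, adjusted p = 1.2e-05). Scd2 was at 633, 660.2 and 837 CPM (-0.59 ± 0.10, adjusted p = 4.96e-05) and Fasn at 158, 154 and 192 CPM (-0.47 ± 0.09, adjusted p = 0.000481), both also below CD229+. Acaca was at 116, 137 and 162 CPM, overlapping CD229+ (-0.06 ± 0.13, adjusted p = 0.787). The 5-week Cre cells gave the same 3 falls, of -0.51 ± 0.06, adjusted p = 3.36e-08 for Srebf1, -0.45 ± 0.08, adjusted p = 0.000112 for Scd2, and -0.43 ± 0.06, adjusted p = 3.96e-06 for Fasn. Acaca there was at 163 ± 4.55 and 163 ± 4.53 CPM (-0.01 ± 0.09, adjusted p = 0.964). At both times the synthase and the desaturase fell, and the carboxylase did not pass the test. At 6 weeks the same step raised Acaca from 51.0, 100.3 and 79.0 to 154, 156 and 147 CPM (0.99 ± 0.15, adjusted p = 2.12e-05), and Srebf1, Scd2 and Fasn did not pass (0.22, 0.29 and 0.27, edgeR adjusted p = 0.139, 0.0884 and 0.088). With the replicate number as a block, not taken as a pairing there, these 3 were called higher (edgeR adjusted p = 0.0455, 0.0341 and 0.0373). The 4-, 5- and 6-week steps were not tested against one another. Counts were 1 higher and 5 lower at 4 weeks (18.2%, all genes 23.3%, 11.8% higher and 11.5% lower), 0 and 4 at 5 weeks (12.1%, all genes 14.1%, 6.85% higher and 7.25% lower), and 3 and 1 at 6 weeks (12.1%, all genes 17.2%, 8.64% higher and 8.53% lower). With DESeq2's size factors the 4-week split was 0 and 5. The count of 6 at 4 weeks was 3 without CD229+ CD11c+ replicate 1 or 2. The count of 4 at 6 weeks was 2 without CD229+ CD11c+ replicate 2 or CD229+ replicate 1 or 3, 8 without CD229+ CD11c+ replicate 3, and 7 without CD229+ replicate 2. Cell cycle genes summed to less in the CD11c+ gate at 4 and 5 weeks (404 to 562 against 771 to 869 CPM at 5 weeks) and overlapped at 6 weeks (432 to 585 against 555 to 782 CPM), and their part was not tested.

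Trem2 encodes a lipid-sensing receptor of microglia, and Trem2KO cells show these genes in its absence. At baseline 0 of 33 members were called higher and 0 lower in Trem2KO by edgeR (all genes 0.577%, 0.0395% higher and 0.538% lower), 7 had an unadjusted p under 0.05, and DESeq2 called 0. Here and below, genes with an unadjusted p under 0.05 were not counted over all genes. Such counts of members therefore have no background beside them and are not read as a result. Without WT baseline replicate 1, Scd1 was the 1 call (adjusted p = 0.0325), at 4, 9 and 29 reads in WT and 3, 2 and 2 reads in Trem2KO libraries. After cuprizone Acaca was lower in Trem2KO in both gates. In CD229- cells it stood at 17.7, 16.8, 15.2 and 12.4 CPM in the 4 Trem2KO libraries, against 38.5, 40.6 and 60.5 CPM in WT (-1.60 ± 0.15, adjusted p = 6.8e-09). In CD229+ cells it was at 24.7, 29.5, 24.6 and 33.02 CPM in Trem2KO, against 133, 148 and 146 CPM in WT (-2.43 ± 0.14, adjusted p = 3.06e-14). Neither gate overlapped between genotypes, and Trem2KO CD229+ cells held less Acaca than WT CD229- cells. Scd2 was also lower, with a log2 difference of -0.66 ± 0.09, adjusted p = 5.32e-06 in CD229- and -1.39 ± 0.09, adjusted p = 7.95e-13 in CD229+ cells, where its level was 385, 417, 429 and 464 CPM in Trem2KO. Fasn differed by -0.45 and -0.86 and Srebf1 by -0.27 and -0.68 in the same gates, all lower in Trem2KO (edgeR adjusted p = 0.000728, 4.36e-09, 0.0185 and 5.18e-08); the CD229- value of Srebf1 was not called without WT CD229- replicate 3 (0.206) or Trem2KO CD229- replicate 2 (0.0667). Scd1, with 1, 0, 4 and 1 reads in Trem2KO CD229+ libraries against 9, 6 and 19 in WT, had a larger log2 difference on these few reads (-2.99 ± 0.76, adjusted p = 0.00168).

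Srebf2 fell with cuprizone in Trem2KO cells. It was at 72.8, 71.5 and 76.3 CPM at baseline, 62.6, 59.8, 54.5 and 56.5 CPM in CD229- (-0.34 ± 0.06, adjusted p = 0.000829) and 58.0, 54.7, 50.05 and 48.6 CPM in CD229+ libraries, while WT libraries of all 4 groups kept to 71.9 to 96.1 CPM. The difference between genotypes was -0.41 ± 0.06, adjusted p = 2.94e-05 in CD229- and -0.82 ± 0.07, adjusted p = 4.2e-11 in CD229+ cells. Insig1 in CD229+ cells was at 21.6, 18.0, 16.6 and 14.1 CPM in Trem2KO and 26.6, 26.1 and 32.1 CPM in WT (-0.75 ± 0.11, adjusted p = 3.08e-06), with no overlap. Sterol enzymes were lower there as well. Hmgcs1 was at 52.5, 44.8, 41.4 and 49.9 CPM in Trem2KO (-0.48 ± 0.09, adjusted p = 9.8e-05) and Dhcr7 at 50.5, 53.4, 44.7 and 49.3 CPM (-0.58 ± 0.08, adjusted p = 4.37e-07), each below every WT library. The differences were -0.56 ± 0.11, adjusted p = 0.000134 for Cyp51, and -0.94 ± 0.17, adjusted p = 3.55e-05 for Fdps, and Stard4, at 6.14 ± 0.994 against 9.79 ± 2.13 CPM, was lower too (-0.76 ± 0.19, adjusted p = 0.00112). Lbr and Ggps1, which fell in WT cells, were higher in Trem2KO CD229+ cells, by 0.44 ± 0.07, adjusted p = 1.55e-05 and 0.39 ± 0.10, adjusted p = 0.00146. Of 33 members 3 were higher and 16 lower in CD229+ cells (57.6%, all genes 52.5%, 26.0% higher and 26.5% lower), with a median of -0.27 against 0.009. In CD229- cells 1 was higher and 8 were lower (27.3%, all genes 20.3%, 7.23% higher and 13.1% lower), and that count of 9 was 4 without WT CD229- replicate 3. By role, 5 of 7 fatty acid genes, 3 of 5 factors and regulators, 3 of 8 mevalonate and 4 of 12 later sterol enzymes were lower in CD229+ cells, beside the carrier Stard4. Ctsb was lower in Trem2KO too (1771 to 2369 against 2756 to 3043 CPM in CD229+ libraries), beside Fdft1 at 88.7 ± 8.72 against 110.4 ± 4.16 CPM. Cell cycle genes summed to 551 to 746 CPM in Trem2KO and 817 to 1002 CPM in WT CD229+ libraries, and their part was not tested.

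**Figure D3:**
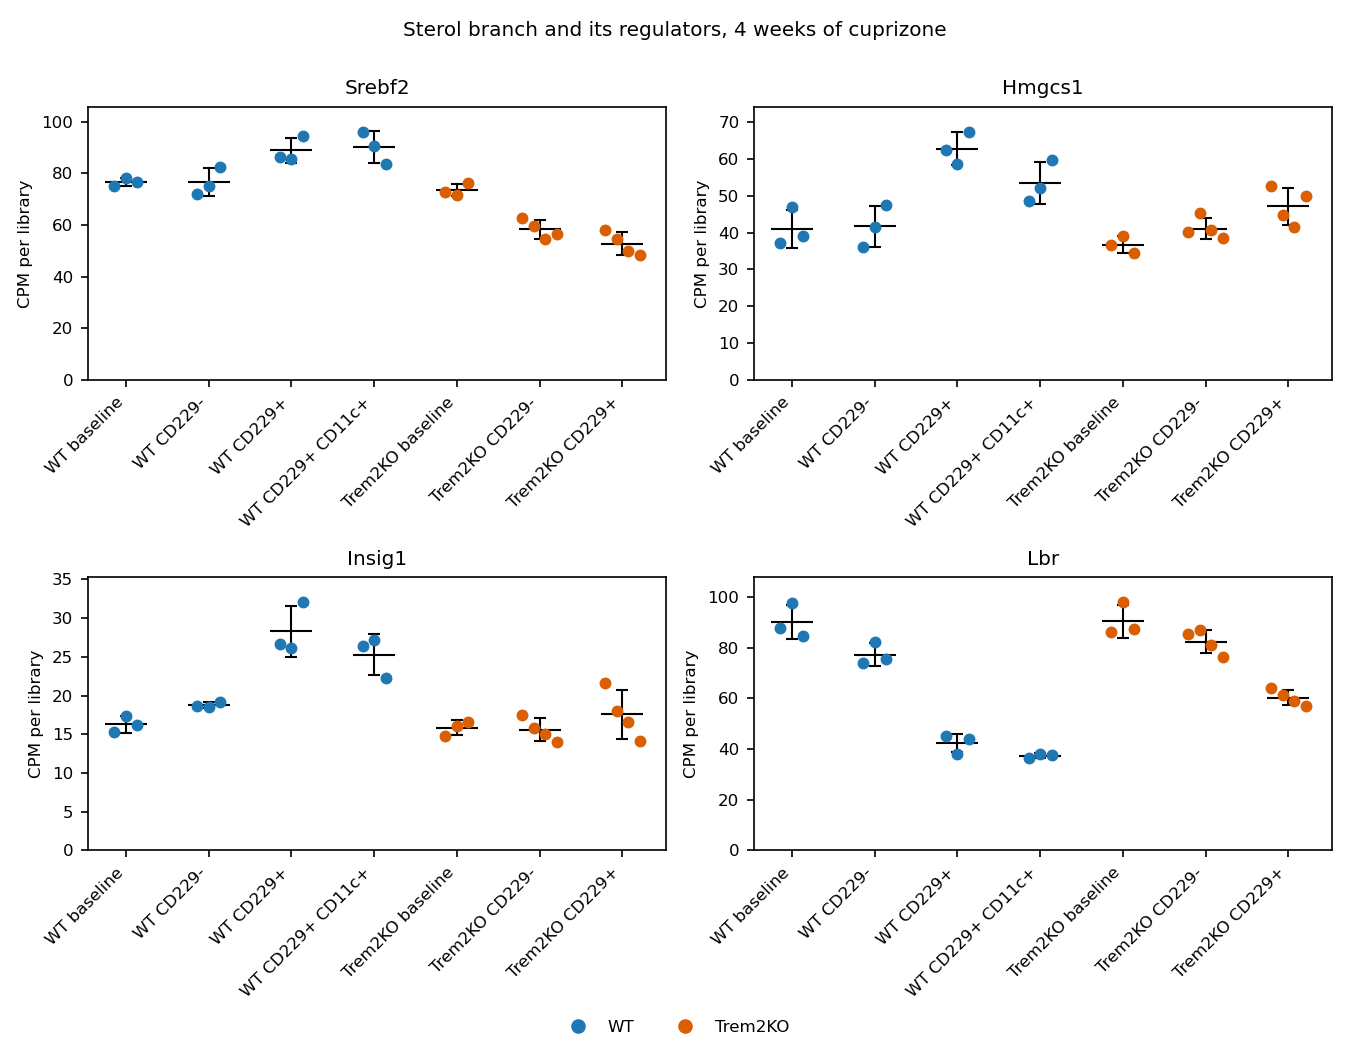
CPM in each library (points) with the group mean and SD (bars) for Srebf2, Hmgcs1, Insig1 and Lbr in WT and Trem2KO cells at baseline and after 4 weeks of cuprizone. Srebf2 is lower in all 8 Trem2KO cuprizone libraries than in any WT library, and Lbr falls from CD229- to CD229+ in both genotypes.

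The steps themselves were compared between genotypes with an interaction term. From CD229- to CD229+, Trem2KO cells still raised Acaca from 15.5 ± 2.35 to 27.9 ± 4.08 CPM (0.81 ± 0.15, adjusted p = 0.000148), Scd2 (0.50 ± 0.09, adjusted p = 5.37e-05), Fasn (0.47 ± 0.08, adjusted p = 8.01e-05) and Srebf1 (0.31 ± 0.07, adjusted p = 0.00231), and lowered Lbr (-0.47 ± 0.06, adjusted p = 2.17e-06). The interaction, Trem2KO step minus WT step, was -0.83 ± 0.21, adjusted p = 0.00648 for Acaca, -0.73 ± 0.13, adjusted p = 0.000237 for Scd2, -0.40 ± 0.09, adjusted p = 0.00316 for Srebf2, and 0.37 ± 0.10, adjusted p = 0.0121 for Lbr. The WT steps were larger for Acaca, Scd2 and Lbr, while the Srebf2 steps had opposite signs, -0.16 in Trem2KO and 0.24 in WT. Fasn (-0.41 ± 0.13, adjusted p = 0.0246) lost the call without Trem2KO CD229- replicate 1 (0.0528), WT CD229- replicate 1 or 2 (0.0983 and 0.104) or WT CD229+ replicate 3 (0.0682). Srebf1 (-0.41 ± 0.11, adjusted p = 0.0139) lost it without WT CD229- replicate 2 (0.064) and Acly (-0.23 ± 0.07, adjusted p = 0.0176) without WT CD229+ replicate 1 (0.0527). Hmgcs1 (-0.44 ± 0.14, adjusted p = 0.0271) lost it without any one of 7 libraries, with adjusted p up to 0.105 without WT CD229- replicate 1. In all 1 interaction was positive and 7 were negative (24.2%, all genes 14.8%, 9.02% higher and 5.77% lower), and without WT CD229- replicate 2 the count was 5. From baseline to CD229- the interaction was -1.61 ± 0.24, adjusted p = 0.000163 for Acaca, -0.60 ± 0.14, adjusted p = 0.00954 for Scd2, and -0.38 ± 0.09, adjusted p = 0.0188 for Srebf2, the 3 called members (9.09%, all genes 3.95%, 0.783% higher and 3.17% lower). Scd2 lost that call without WT CD229- replicate 3 (0.0527) and Srebf2 without it (0.0942) or Trem2KO baseline replicate 3 (0.0593). The count of 3 was 1 without WT CD229- replicate 3 and 5 without Trem2KO baseline replicate 2. Trem2KO Acaca itself did not pass the test from baseline to CD229- (13.4 ± 0.170 and 15.5 ± 2.35 CPM, 0.21 ± 0.17, adjusted p = 0.593), while Scd2 and Fasn rose (0.62 and 0.46, edgeR adjusted p = 5.07e-05 and 0.00196). In that step 4 members rose and 2 fell (18.2%, all genes 7.28%, 5.42% higher and 1.86% lower), and at the Trem2KO CD229 gate 6 rose and 2 fell (24.2%, all genes 27.5%, 14.8% higher and 12.7% lower).

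Mef2a encodes a transcription factor of microglia. Its deletion left baseline members uncalled (0 and 0 by edgeR, all genes 3.84%, 1.76% higher and 2.08% lower, 1 with an unadjusted p under 0.05, DESeq2 0). After 5 weeks of cuprizone Acaca was lower and Srebf1 higher in most gates. Acaca was lower in Mef2aKO Clec7a- cells, at 20.3 and 23.8 CPM against 33.2, 38.7 and 44.6 CPM in Cre (-0.78 ± 0.13, adjusted p = 5.78e-05), in Clec7a+ CD229+ cells, at 119, 120.4 and 123 against 158, 166 and 166 CPM (-0.41 ± 0.09, adjusted p = 0.00254), and in triple-positive cells, at 106, 114 and 137 against 158, 167 and 162 CPM (-0.48 ± 0.09, adjusted p = 0.000382). In Clec7a+ cells it did not pass (-0.12 ± 0.09, adjusted p = 0.641). Srebf1 was higher in 3 gates: at 258, 239 and 243 against 201, 185 and 184 CPM in Clec7a+ cells (0.38 ± 0.06, adjusted p = 1.66e-05), at 285, 271 and 262 against 239, 225 and 239.8 CPM in Clec7a+ CD229+ cells (0.24 ± 0.05, adjusted p = 0.00359), and at 229.3, 203 and 219.6 against 157, 168 and 170.1 CPM in triple-positive cells (0.37 ± 0.06, adjusted p = 2.26e-05). The genotypes did not overlap in any of these. Fasn (0.26 ± 0.06, adjusted p = 0.00921) and Scd2 (0.28 ± 0.08, adjusted p = 0.0354) were higher in Clec7a+ cells, Fasn not without Cre Clec7a+ replicate 3 (0.101) or Mef2aKO replicate 1 (0.054), and Scd2 not without Cre replicate 1 (0.267) or any one Mef2aKO library of the gate (up to 0.139 without replicate 2).

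**Figure D4:**
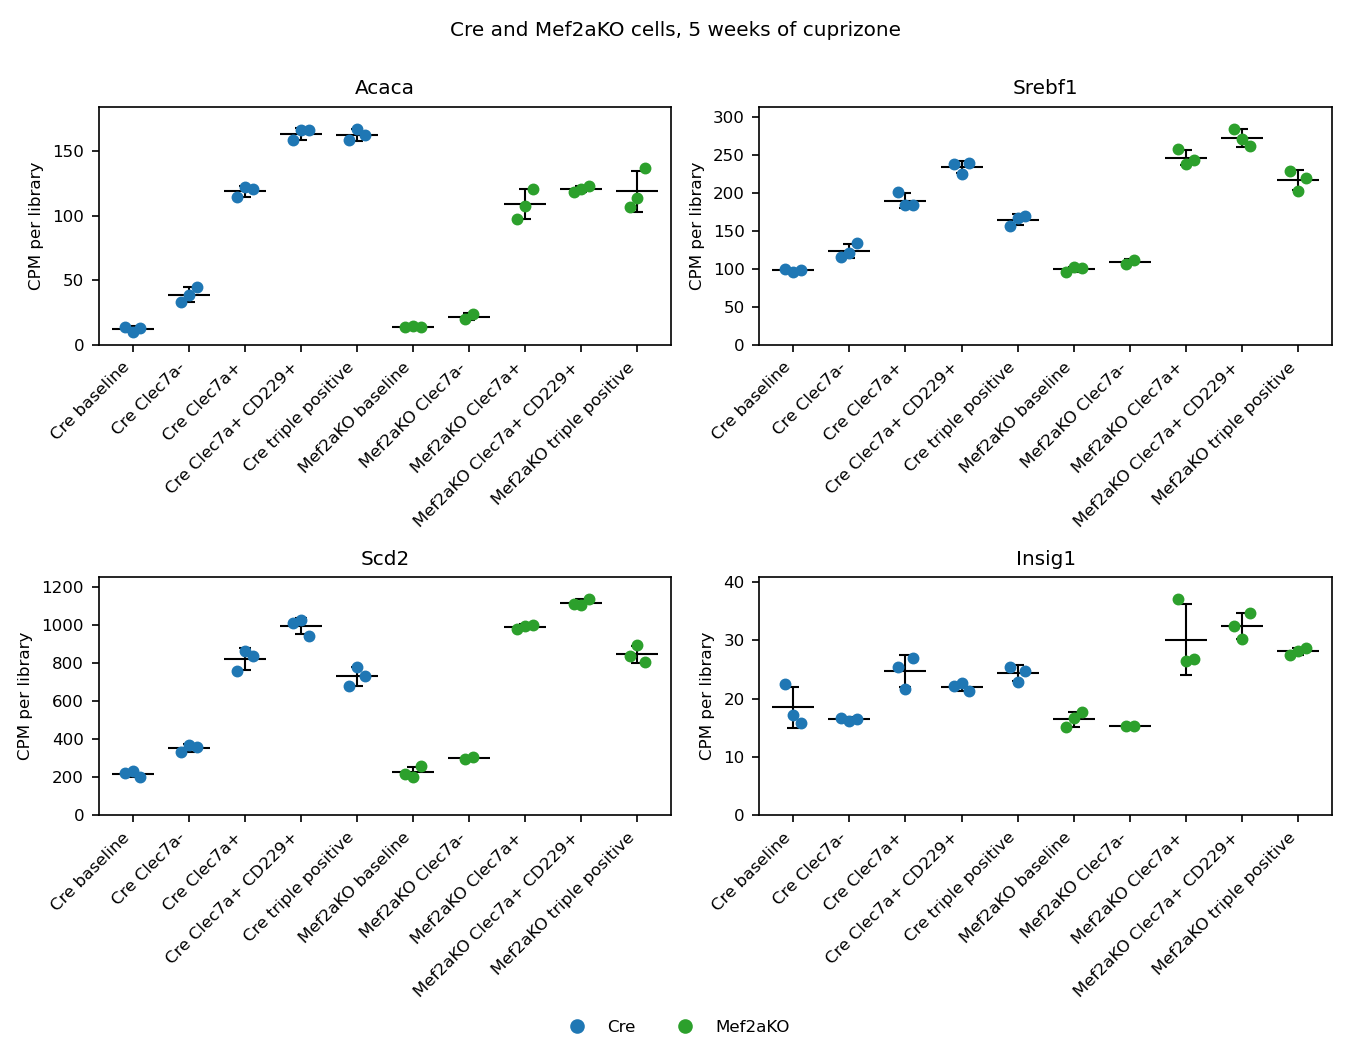
CPM in each library (points) with the group mean and SD (bars) for Acaca, Srebf1, Scd2 and Insig1 in Cre and Mef2aKO cells at baseline and in the 4 gates at 5 weeks of cuprizone. Srebf1 is at 203 to 285 CPM in the Mef2aKO Clec7a+, Clec7a+ CD229+ and triple-positive libraries and at 157 to 239.8 CPM in the matching Cre libraries, while Acaca is higher in Cre in the last 2 gates.

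Genes of the sterol branch were also higher in Mef2aKO Clec7a+ CD229+ cells. Insig1 was at 32.4, 30.3 and 34.7 against 22.1, 22.7 and 21.3 CPM (0.59 ± 0.12, adjusted p = 0.00156) and Cyp51 at 32.5 ± 2.30 against 23.0 ± 3.97 CPM (0.53 ± 0.11, adjusted p = 0.00155). Stard4 was higher (0.82 ± 0.18, adjusted p = 0.00353), though not without Mef2aKO Clec7a+ CD229+ replicate 1 (0.0572), and the desaturase Sc5d (0.51 ± 0.14, adjusted p = 0.0197) not without that library (0.114) or Cre replicate 1 or 2 of the gate (0.154 and 0.084). Hsd17b7, a ketosteroid reductase of the pathway, was higher in Clec7a- cells (10.4 ± 1.21 against 5.04 ± 0.668 CPM, 1.08 ± 0.27, adjusted p = 0.0102) and in Clec7a+ cells (8.88 ± 2.35 against 4.31 ± 1.01 CPM, 1.096 ± 0.26, adjusted p = 0.00994). The first ended without Mef2aKO Clec7a- replicate 1 (0.186), the second without Cre or Mef2aKO Clec7a+ replicate 1 (0.126 and 0.126). Counts of members higher and lower were 1 and 1 in Clec7a- (6.06%, all genes 5.53%, 1.62% higher and 3.91% lower), 4 and 0 in Clec7a+ (12.1%, all genes 3.7%, 1.47% higher and 2.23% lower), 6 and 1 in Clec7a+ CD229+ (21.2%, all genes 4.9%, 2.09% higher and 2.81% lower) and 3 and 1 in triple-positive cells (12.1%, all genes 4.69%, 2.34% higher and 2.35% lower). These small counts moved with single libraries: to 1 without Mef2aKO Clec7a- replicate 1, to 1 without Mef2aKO Clec7a+ replicate 1, to 4 without Mef2aKO Clec7a+ CD229+ replicate 1, and to 2 without Cre triple-positive replicate 1 or any one Mef2aKO triple-positive library. Member medians in these gates were -0.01, 0.20, 0.19 and 0.13, against -0.006, 0.004, 0.014 and -0.007 over all genes. Border macrophage markers summed to less in Mef2aKO, at 48.2 to 58.3 against 115 to 138 CPM in Clec7a+ CD229+ libraries, and their part was not tested.

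Within Mef2aKO mice the Clec7a gate raised 17 members and lowered 2 (57.6%, all genes 45.8%, 24.8% higher and 21.0% lower), with Acaca from 22.0 ± 2.50 to 109 ± 11.6 CPM (2.33 ± 0.12, adjusted p = 1.48e-16) and Srebf1 from 109.8 ± 3.62 to 247 ± 10.4 CPM (1.20 ± 0.07, adjusted p = 3.71e-16). From baseline to Clec7a- cells 3 rose and 0 fell (9.09%, all genes 7.85%, 5.01% higher and 2.84% lower): Acaca, Fasn and Scd2, by 0.63, 0.31 and 0.41. Acaca was not called without Clec7a- replicate 2 (0.106) nor Fasn without Clec7a- replicate 1 (0.153), and fitted on those groups alone the count was 1. The CD11c step lowered Srebf1 (-0.38 ± 0.05, adjusted p = 7.06e-06), Scd2 (-0.46 ± 0.08, adjusted p = 0.000122) and Fasn (-0.32 ± 0.06, adjusted p = 0.000389) in Mef2aKO as in Cre cells, with 0 higher and 4 lower in all (12.1%, all genes 10.7%, 5.14% higher and 5.6% lower). At the CD229 gate 0 and 0 were called by edgeR (all genes 0.47%, 0.0227% higher and 0.447% lower), 4 had an unadjusted p under 0.05, and DESeq2 called 1. The interaction with genotype at that gate called 0 and 0 (all genes 0.0%, 0.0% higher and 0.0% lower, 2 with an unadjusted p under 0.05, DESeq2 0). The CD229 gates of Mef2aKO baseline cells called 0 and 0 of 32 members tested (all genes 0.15%, 0.135% higher and 0.0158% lower, 1 with an unadjusted p under 0.05, DESeq2 0). Mef2aKO CD229+ baseline cells against Cre baseline cells gave 0 and 0 (all genes 1.59%, 0.863% higher and 0.729% lower, 1 unadjusted, DESeq2 0). The PE150 tag was on 2 of 3 CD229- and 1 of 2 CD229+ libraries of Mef2aKO baseline cells, and on no Cre baseline library.

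Egr2 encodes a zinc finger transcription factor. In Egr2KO against Cre cells 0 and 0 of 33 members were called higher and lower at baseline, 0 and 0 in CD229-, 1 and 0 in CD229+ and 0 and 0 in CD229+ CD11c+ cells at 6 weeks by edgeR (all genes 0.182%, 0.152% higher and 0.0303% lower at baseline, 0.19%, 0.144% higher and 0.0455% lower in CD229-, 2.46%, 1.42% higher and 1.05% lower in CD229+, and 0.25%, 0.121% higher and 0.129% lower in CD229+ CD11c+ cells). At baseline both Egr2KO libraries and none of the 3 Cre libraries carry the PE150 tag, so that genotype and tag cannot be told apart there. Unadjusted p-values under 0.05 numbered 0, 4, 7 and 2, and DESeq2 called 0, 0, 2 and 0. The call was Fasn in CD229+ cells, at 153, 205 and 212 CPM in Egr2KO and 117, 177 and 153 CPM in Cre libraries, which overlapped (0.40 ± 0.11, adjusted p = 0.0433). It ended without Cre CD229+ replicate 1 or 3 (0.198 and 0.166) or Egr2KO CD229+ replicate 2 or 3 (0.224 and 0.184). Acaca there was at 79.5, 120.4 and 116 against 51.0, 100.3 and 79.0 CPM (0.50 ± 0.15, adjusted p = 0.0755), and replicate 1 was the lowest in both genotypes. Without Cre CD229+ replicate 2 the count was 4, and without Egr2KO CD229+ replicate 1 it was 3. In the ungated 5-week cells (n = 2 each) edgeR called 0 and 0 of 31 members tested (all genes 0.92%, 0.299% higher and 0.622% lower, 1 unadjusted, DESeq2 0); Acaca was at 105 and 106 CPM in Egr2KO and 127 and 114 CPM in Cre, and Scd2 at 735 and 762 and 783 and 822 CPM.

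**Figure D5:**
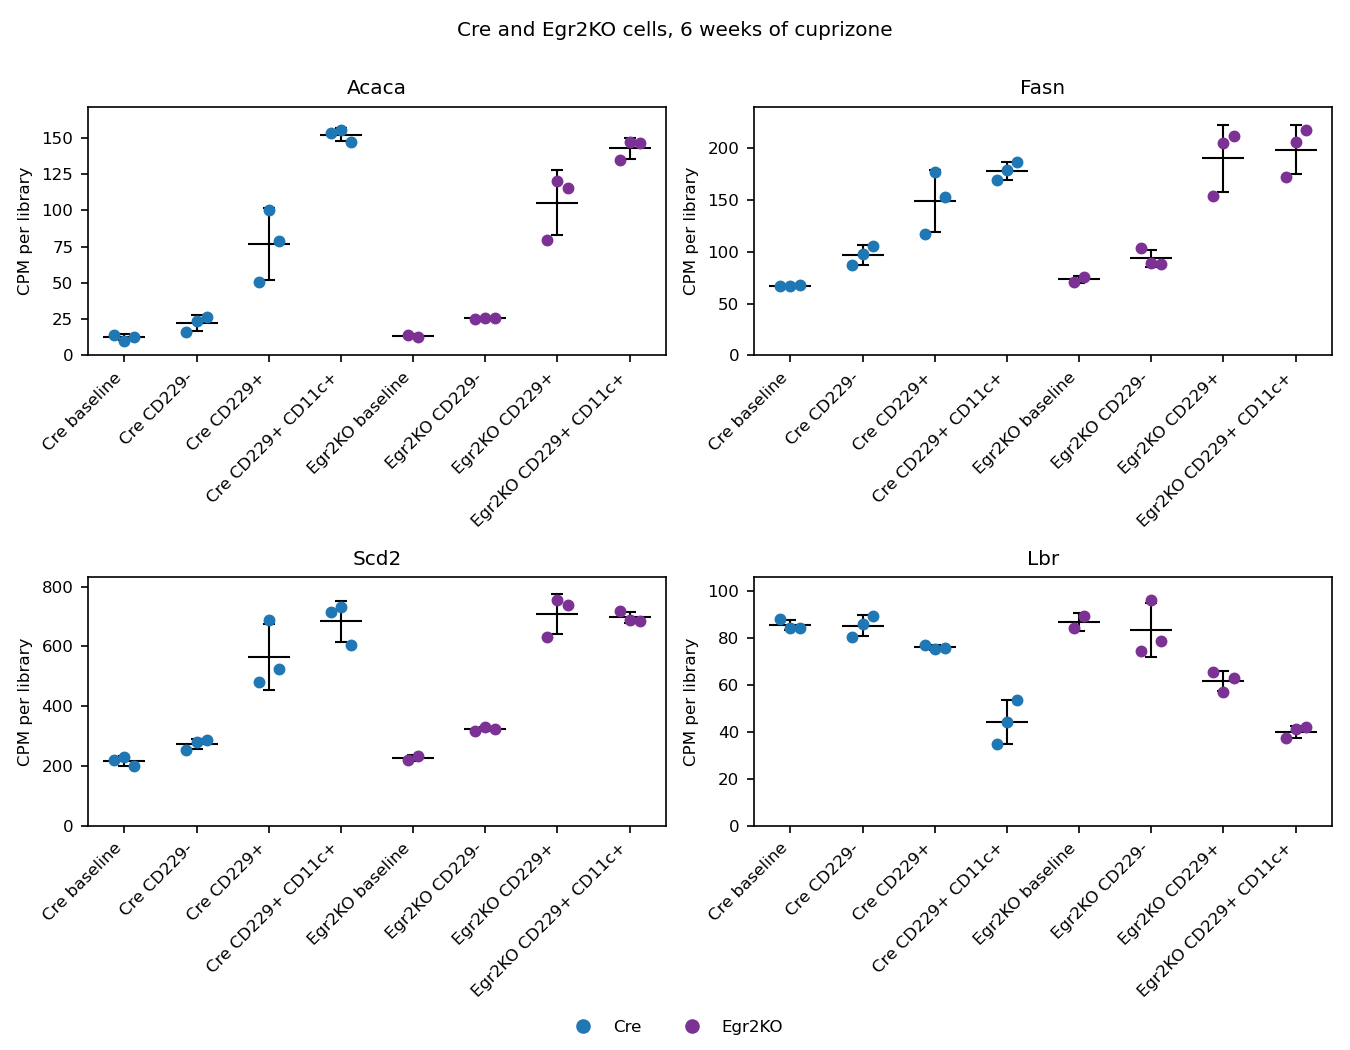
CPM in each library (points) with the group mean and SD (bars) for Acaca, Fasn, Scd2 and Lbr in Cre and Egr2KO cells at baseline and in the 3 gates at 6 weeks of cuprizone. Acaca rises over the gates in both genotypes, from at most 14.2 CPM at baseline to at least 135 CPM in CD229+ CD11c+ libraries, and Lbr is lowest in the CD229+ CD11c+ gate.

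Within Egr2KO mice 4 of the 7 fatty acid enzymes rose at the CD229 gate. Acaca rose from 25.4, 25.7 and 25.8 to 79.5, 120.4 and 116 CPM (2.04 ± 0.17, adjusted p = 9.27e-09), Scd2 from 325 ± 6.44 to 709.8 ± 66.9 CPM (1.11 ± 0.12, adjusted p = 1.26e-07) and Fasn from 93.6 ± 8.59 to 190.2 ± 32.0 CPM (1.01 ± 0.11, adjusted p = 1.91e-07), each without overlap. Acly was the other (0.29 ± 0.09, adjusted p = 0.0213), though not without CD229- replicate 2 (0.0654) or CD229+ replicate 2 (0.082), while Acss2 (0.41 ± 0.26, adjusted p = 0.244), Scd1 (1.95 ± 0.88, adjusted p = 0.102) and Elovl6 (-0.29 ± 0.52, adjusted p = 0.725) did not pass. Also higher were Srebf1 (0.57 ± 0.10, adjusted p = 0.000125), Dhcr7 (0.53 ± 0.11, adjusted p = 0.000613), Fdft1, Hmgcs1, Pmvk, Cyp51, Srebf2, Insig1 and Stard4. Lower were Lbr, Acat2 and Ggps1, with Lbr at 83.1 ± 11.5 and 61.6 ± 4.33 CPM (-0.45 ± 0.09, adjusted p = 0.000507). Srebf1, Dhcr7, Fdft1 and Lbr kept their calls without any one library, and the others of these genes did not. In all 13 rose and 3 fell (48.5%, all genes 27.5%, 14.7% higher and 12.8% lower); the count of 16 was 9 without CD229- replicate 1, 10 without CD229+ replicate 3, and 3 in the untagged libraries, where Acaca, Fasn and Scd2 were called. With DESeq2's size factors the split was 13 and 1. With the replicate number as a block, where same-numbered libraries deviated together, Scd1 was called as well (5, 1 and 2 reads in CD229- and 6, 14 and 16 reads in CD229+ libraries, adjusted p = 0.0162). The interaction with genotype called 0 and 0 by edgeR (all genes 0.0%, 0.0% higher and 0.0% lower), 4 had an unadjusted p under 0.05, and DESeq2 called 0. From baseline to CD229- cells 2 rose (6.06%, all genes 8.23%, 6.52% higher and 1.71% lower), Acaca (0.94 ± 0.22, adjusted p = 0.00639) and Scd2 (0.56 ± 0.13, adjusted p = 0.00718), each lost without 1 of the 2 baseline libraries (replicate 2, 0.0814, and replicate 1, 0.124), which left a count of 1. At the CD11c step 2 rose and 1 fell (9.09%, all genes 11.7%, 5.44% higher and 6.25% lower). Lbr, which had already fallen at the Egr2KO CD229 gate and was not called at that of Cre cells, fell at the CD11c step. It went from 65.2, 56.8 and 62.8 to 37.2, 41.0 and 41.9 CPM (-0.65 ± 0.09, adjusted p = 2.57e-05), as in Cre cells. Without CD229+ CD11c+ replicate 3 or CD229+ replicate 1 or 3 it was the 1 call left. With DESeq2's size factors 1 rose and 1 fell.

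Beside the 33 members, 31 further genes of the pathways were counted: proteases and turnover regulators of SREBP, other enzymes of fatty acid synthesis, elongation and desaturation, and isoprenoid and esterification branches. At the WT CD229 gate 10 of 27 tested rose and 5 fell (all genes 48.8%, 24.6% higher and 24.2% lower), with a median log2 change of 0.12 against -0.006 over all genes. Soat1, which esterifies cholesterol for storage, rose from 229.6 ± 10.2 to 384 ± 4.24 CPM (log2 0.77 ± 0.07, adjusted p = 1.25e-09). Hsd17b12, the ketoreductase of fatty acid elongation, rose from 98.7 ± 8.55 to 150.2 ± 3.50 CPM (log2 0.63 ± 0.07, adjusted p = 8.63e-09). Lpin1, a phosphatidate phosphatase, fell from 128 ± 11.2 to 63.3 ± 5.01 CPM (log2 -0.997 ± 0.09, adjusted p = 1.04e-09). At the 5-week Clec7a gate 8 of 28 rose and 3 fell (all genes 37.9%, 20.9% higher and 17.0% lower), with the elongation dehydratase Hacd2 from 44.5 ± 2.27 to 75.3 ± 7.13 CPM (log2 0.82 ± 0.08, adjusted p = 1.52e-09). At the 6-week CD229 gate 6 of 29 rose and 1 fell (all genes 17.2%, 10.7% higher and 6.54% lower). In Trem2KO against WT CD229+ cells 5 of 27 were higher and 11 lower (all genes 52.5%, 26.0% higher and 26.5% lower). Hacd2 went there from 87.8 ± 1.80 to 32.96 ± 3.87 CPM (log2 -1.49 ± 0.09, adjusted p = 1.62e-13), and the desaturase Fads1 from 109 ± 5.44 to 169 ± 7.58 CPM (log2 0.56 ± 0.06, adjusted p = 2.79e-09), each from WT to Trem2KO. In Mef2aKO against Cre Clec7a+ CD229+ cells 3 of 28 were higher and 2 lower (all genes 4.9%, 2.09% higher and 2.81% lower). Among the higher was Fads1, from 103 ± 9.27 to 142 ± 5.50 CPM (log2 0.49 ± 0.06, adjusted p = 4.89e-07), and among the lower Hacd2, from 84.1 ± 4.76 to 59.97 ± 2.09 CPM (log2 -0.46 ± 0.08, adjusted p = 0.000265).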

How the data were processed

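RNA sequencing libraries of sorted microglia were analysed from the counts per gene that the authors deposited: 6 tables of raw counts, 25124 genes each, covering 81 libraries in 28 groups. The submitters' processing notes name HOMER 4.11, STAR 2.7.0f, DESeq2 and fastp 0.20.0 as tools and mm10 and GRCm38 as builds; their settings and the use of strand are not given in the sources used here. Columns and libraries were matched by title, and groups came from the labels. The WT and Trem2KO tables were joined on the 24910 genes whose shared WT baseline libraries held identical counts, which left out 214 genes and no member. The transcript named for a gene differed between these tables for 1560 genes.

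Libraries of 1 experiment were fitted together in edgeR 4.0.16 (R 4.3.3; filterByExpr with a minimum count of 10 and a minimum total of 15, TMM scaling, quasi-likelihood F-test, Benjamini-Hochberg adjustment over all genes of the fit, threshold 0.05). The 5 fits held 12387 to 13204 genes; all 33 members passed the filter, except 1 in the Mef2aKO baseline gates and 2 in the ungated cells. There were 34 comparisons of groups and 4 interactions. Depth was 4387075 to 13972985 counts. Comparisons with a common baseline or gate share its libraries. The code was tested on simulated data.

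Replicates of a group differed by more than sampling noise in each of 80 pairs (chi-square per degree of freedom 1.57 to 16.1). The labels do not say that replicates came from separate mice, so p-values measure the spread between these libraries, which may be technical. Same-numbered libraries deviated together, with every pair's correlation over 0.1, at the 6-week CD229 gate of Cre (0.17 to 0.288) and Egr2KO cells (0.121 to 0.176), and there alone was the number taken as a pairing. In those gates same-numbered libraries were also alike in carrying or lacking the PE150 tag. Shared mice and a shared tag therefore cannot be told apart there.

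The 33 members and the 31 further genes were chosen with earlier results of these data known. Any member could be named; values per library were given for up to 3 members per role called in the most control steps and for Srebf1, Srebf2, Insig1, Scd1 and Scd2. Further genes were named from the 3 smallest adjusted p of a comparison with a mean of at least 5 CPM. Marker lists not described in the results ranged, in summed CPM over all libraries, over 83.5 to 265 (astrocytes), 0.687 to 5.39 (neurons), 26.3 to 328 (endothelium), 6.39 to 34.5 (monocytes), 0 to 12.1 (neutrophils) and 6.34 to 29.2 (B cells). Alternatives were DESeq2 1.42.0, its size factors in edgeR, no filter, a fit of the compared groups alone, the replicate number as a block, leaving out each library and the PE150 title tag as a covariate; fits within tagged or untagged libraries were chosen after seeing the data. Promoter sequences are from RefSeq (GRCm38.p6), and exon overlaps from GENCODE M21. Some genes of these pathways are not reported here.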

Additional observations from a re-analysis of the deposited data

Results flagged for a closer look

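Among the groups of 4 libraries, 66 group values were checked for a library far from the others, and chance flags about 1 in 20. Hsd17b7 in Trem2KO CD229+ replicate 4 was at 3.375 CPM, with the other 3 libraries at 6.498 to 6.819 CPM. Stard4 was highest in the same library, at 7.63 CPM, with the others at 5.601 to 5.718 CPM. Scd1 in Trem2KO CD229- replicate 1 was at 0.209 CPM, with the others at 0.

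Other values are here because a step differed between Trem2KO and WT cells by the interaction test of edgeR. At the CD229 gate the Trem2KO step minus the WT step was, on the log2 scale, -0.439 for Hmgcs1 (adjusted p = 0.0271), 0.369 for Lbr (adjusted p = 0.0121), -0.411 for Srebf1 (adjusted p = 0.0139) and -0.403 for Srebf2 (adjusted p = 0.00316). It was -0.229 for Acly (adjusted p = 0.0176), -0.831 for Acaca (adjusted p = 0.00648), -0.415 for Fasn (adjusted p = 0.0246) and -0.73 for Scd2 (adjusted p = 0.000237). Srebf2 had steps of opposite sign, -0.16 in Trem2KO and 0.242 in WT. From baseline to CD229- cells the interaction was -0.378 for Srebf2 (adjusted p = 0.0188), with steps of -0.34 in Trem2KO and 0.038 in WT. It was -1.613 for Acaca (adjusted p = 0.000163), with steps of 0.21 and 1.822, and -0.605 for Scd2 (adjusted p = 0.00954), with steps of 0.625 and 1.23.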

How the results depend on the processing

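Over all members and comparisons, 14909 alternative values kept the side of the threshold, 302 lost the call, 168 gained one and 1 reversed. Direction was compared only where the main value was called. The reversed value was Srebf2 at the Egr2KO CD229 gate, -0.004 on the log2 scale in libraries without the PE150 tag, against 0.355 in all. Counts of members called are given below with the main count in brackets, and the cause was not tested. A fit of the compared groups alone gave 1 (3) for Mef2aKO Clec7a- against baseline, 2 (0) for the Mef2aKO CD229 gate at 5 weeks and 0 (1) for Egr2KO against Cre CD229+ cells. DESeq2 gave 1 (0) for that Mef2aKO gate and 2 (1) for Egr2KO against Cre CD229+, and no filter gave 4 (1) for the latter and 5 (3) for the diet interaction of Trem2KO. The PE150 covariate gave 4 (1) for Egr2KO against Cre CD229+ and 4 (2) for Egr2KO CD229- against baseline. Tagged libraries alone gave 2 (4) for the Cre CD11c step at 6 weeks, 1 (3) for the Egr2KO CD11c step and 2 (1) for Egr2KO against Cre CD229+. Untagged libraries alone left 1 per gate at 6 weeks, so that the spread came only from the 3 Cre baseline libraries. The lone library of each gate is assumed to vary like them, and every call within untagged libraries rests on that. The replicate number as a block gave 10 (6) for the WT CD11c step, 13 (8) for the Trem2KO CD229 gate, 8 (5) for the Cre CD229 gate at 5 weeks, 1 (0) for the Mef2aKO CD229 gate, 8 (4) for the Cre CD11c step at 6 weeks and 4 (1) for Egr2KO against Cre CD229+. In these comparisons not every same-numbered pair correlated over 0.1, so the number was not taken as a pairing. Their lowest correlations ran from -0.0232 (Cre CD229 gate at 5 weeks) to 0.0939 (Cre CD11c step at 6 weeks). The labels do not say whether same-numbered libraries share mice. At the 6-week CD229 gates, where same-numbered libraries deviated together, the block gave 10 (9) in Cre and 17 (16) in Egr2KO cells. Every member called without the block was called with it.

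Leaving out 1 library at a time gave 3 to 6 (6) for WT CD11c step at 4 weeks, 0 to 1 (0) for Trem2KO against WT baseline, 4 to 10 (9) for Trem2KO against WT CD229- at 4 weeks, 3 to 5 (5) for Cre CD229 gate at 5 weeks, 1 to 2 (2) for Mef2aKO against Cre Clec7a- at 5 weeks, 1 to 5 (4) for Mef2aKO against Cre Clec7a+ at 5 weeks, 4 to 7 (7) for Mef2aKO against Cre Clec7a+ CD229+ at 5 weeks, 2 to 3 (4) for Mef2aKO against Cre triple-positive at 5 weeks, 1 to 3 (2) for Cre CD229- at 6 weeks against baseline, 5 to 11 (9) for Cre CD229 gate at 6 weeks, 2 to 8 (4) for Cre CD11c step at 6 weeks, 0 to 4 (1) for Egr2KO against Cre CD229+ at 6 weeks, 1 to 3 (2) for Egr2KO CD229- at 6 weeks against baseline, 9 to 15 (16) for Egr2KO CD229 gate at 6 weeks, 1 to 3 (3) for Egr2KO CD11c step at 6 weeks, 5 to 9 (8) for the Trem2KO interaction at the CD229 gate, 1 to 5 (3) for the Trem2KO diet interaction.

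Counts of all genes called moved by over 1.5 times in 30 of the 38 comparisons. The main count and the lowest and highest such counts were 73 and 6 to 288 for Trem2KO against WT baseline, 2568 and 1362 for Trem2KO against WT CD229- at 4 weeks, 921 and 575 for Trem2KO CD229- at 4 weeks against baseline, 730 and 343 to 1381 for Cre CD229 gate at 5 weeks, 1861 and 1169 for Cre CD11c step at 5 weeks, 507 and 93 to 815 for Mef2aKO against Cre baseline, 730 and 299 for Mef2aKO against Cre Clec7a- at 5 weeks, 488 and 315 for Mef2aKO against Cre Clec7a+ at 5 weeks, 647 and 425 to 430 for Mef2aKO against Cre Clec7a+ CD229+ at 5 weeks, 619 and 380 for Mef2aKO against Cre triple-positive at 5 weeks, 1036 and 372 to 626 for Mef2aKO Clec7a- at 5 weeks against baseline, 62 and 17 to 307 for Mef2aKO CD229 gate at 5 weeks, 1419 and 804 to 2252 for Mef2aKO CD11c step at 5 weeks, 19 and 1 to 184 for Mef2aKO CD229 gate at baseline, 201 and 104 to 469 for Mef2aKO CD229+ against Cre baseline, 772 and 457 to 496 for Cre CD229- at 6 weeks against baseline, 2269 and 140 to 1268 for Cre CD229 gate at 6 weeks, 2264 and 1026 to 1076 for Cre CD11c step at 6 weeks, 24 and 1 to 166 for Egr2KO against Cre baseline, 25 and 2 to 167 for Egr2KO against Cre CD229- at 6 weeks, 325 and 7 to 834 for Egr2KO against Cre CD229+ at 6 weeks, 33 and 1 to 162 for Egr2KO against Cre CD229+ CD11c+ at 6 weeks, 1085 and 394 to 696 for Egr2KO CD229- at 6 weeks against baseline, 3631 and 452 for Egr2KO CD229 gate at 6 weeks, 1541 and 405 to 2368 for Egr2KO CD11c step at 6 weeks, 114 and 176 to 339 for Egr2KO against Cre ungated at 5 weeks, 1871 and 3237 for the Trem2KO interaction at the CD229 gate, 500 and 233 to 972 for the Trem2KO diet interaction, 0 and 1 to 4 for the Mef2aKO interaction, 0 and 3 for the Egr2KO interaction. Scd1, Idi1 and Elovl6 had few reads, so that changes in them were hard to detect at this depth. At 3.32 to 5.89 CPM in WT baseline cells, Sqle, Pmvk, Acss2 and Hsd17b7 were also low, so that small changes in them could be missed.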
